A study of Mus musculus with 2 samples.

Results

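Efferocytosis, the uptake and digestion of dying cells, was followed through 8 genes in a mouse skin wound: the receptors *Mertk*, *Axl*, *Tyro3*, *Cd36* and *Timd4*, and the bridging molecules *Gas6*, *Pros1* and *Mfge8*. They were chosen by symbol as the best known receptors and bridges for phosphatidylserine, and all 8 were found among the 31053 genes of both count matrices. The data were 2 single-cell RNA libraries of live cells from excisional back-skin wounds 5 days after injury, made to ask how the wound changes when macrophages that express *Mrc1* (CD206) are depleted. Cells were captured in droplets, and RNA was counted by unique molecular identifiers (UMIs), 1 per captured molecule. The labels describe both as *Mrc1-DTR* mice, C57BL/6, aged 7 to 9 weeks, 1 group treated with PBS (PBS library) and the other with diphtheria toxin (DTX library), and 3 mice were pooled per group. In this line the *Mrc1* promoter drives the diphtheria toxin receptor, so that any cell with an active *Mrc1* promoter is a target. The methods instead describe the controls as wild-type mice given diphtheria toxin.

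A dying cell exposes phosphatidylserine on its outer membrane. *Mertk*, *Axl* and *Tyro3*, the TAM receptor tyrosine kinases, reach it through the secreted bridges *Gas6* and *Pros1*, which bind the lipid at one end and the receptor at the other, whereas *Mfge8* links it to alpha v integrins. *Cd36* is a scavenger receptor for oxidised lipids and apoptotic cells, and *Timd4* (TIM-4) binds phosphatidylserine directly. In skin, macrophages clear dead neutrophils from a healing wound, and uptake is known to shift them towards lipid handling and resolution.

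After cells with under 500 genes, over 6% mitochondrial UMIs or a doublet call were left out, the cells numbered 7944 in the PBS and 6613 in the DTX library, with medians of 9579.5 and 7286 UMIs per cell. Macrophage-like cells made up 21.6% of the PBS and 66.8% of the DTX library, and cells with an *Mrc1* UMI made up 20.5% of all kept cells in the former and 49.1% in the latter. Directions are given for the libraries as labelled. Within macrophage-like cells, *Mrc1* stood at 491 UMIs per 1000000 UMIs of all genes (CPM) in the PBS and 433 in the DTX library, a log2 ratio of -0.18 with an interval of -0.23 to -0.13. The libraries shared 37 barcodes, of which 13 were kept. With 1 library per group, no difference between groups has a replicate check and none was tested. Intervals are exact 95% Poisson intervals for levels and Clopper-Pearson intervals for shares, and cover counting error only.

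The members differed in the cells that held their RNA. *Mertk* UMIs lay mainly in macrophage-like and fibroblast-like cells in the PBS library, with 44.2% and 45.8% of 301, and in macrophage-like cells in the DTX library, with 91.0% of 763. *Axl* was mostly fibroblast RNA, with 75.7% of 8221 UMIs in the PBS and 50.5% of 4043 in the DTX library, and macrophage-like cells held 10.8% and 32.2%. Epithelial-like cells held 77.9% of the 470 and 69.5% of the 105 *Tyro3* UMIs. For *Cd36*, the share of macrophage-like cells was 49.0% of 1548 UMIs in the PBS and 83.2% of 2838 in the DTX library, and that of endothelial-like cells was 17.4% and 4.76%. Macrophages are the textbook site of *Timd4* in other tissues, but here macrophage-like cells held 2 of its 362 UMIs in the PBS and 5 of its 340 in the DTX library. Langerhans-like cells held 51.1% and 40.3% of them. Cluster 8, an unnamed class described below whose most raised marker list was that of macrophages, held 30.1% and 19.4%. Dendritic-like cells held 17.1% and 35.6%.

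Among the bridging molecules, *Gas6* and *Pros1* UMIs lay mainly in fibroblast-like cells, which held 91.0% of 24017 *Gas6* UMIs in the PBS and 88.8% of 6251 in the DTX library. They also held 87.3% of 8496 and 64.7% of 2855 *Pros1* UMIs. *Mfge8* had its largest share in Langerhans-like cells, with 44.6% of 16958 and 37.2% of 6909, followed by fibroblast-like cells, with 41.5% and 27.9%. The Langerhans-like cells were 1.54% and 0.56% of the kept cells. These shares follow the number and size of the cells as well as the RNA per cell, and fibroblast-like cells were 38.6% of the PBS and 9.92% of the DTX library.

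**Figure D1:**
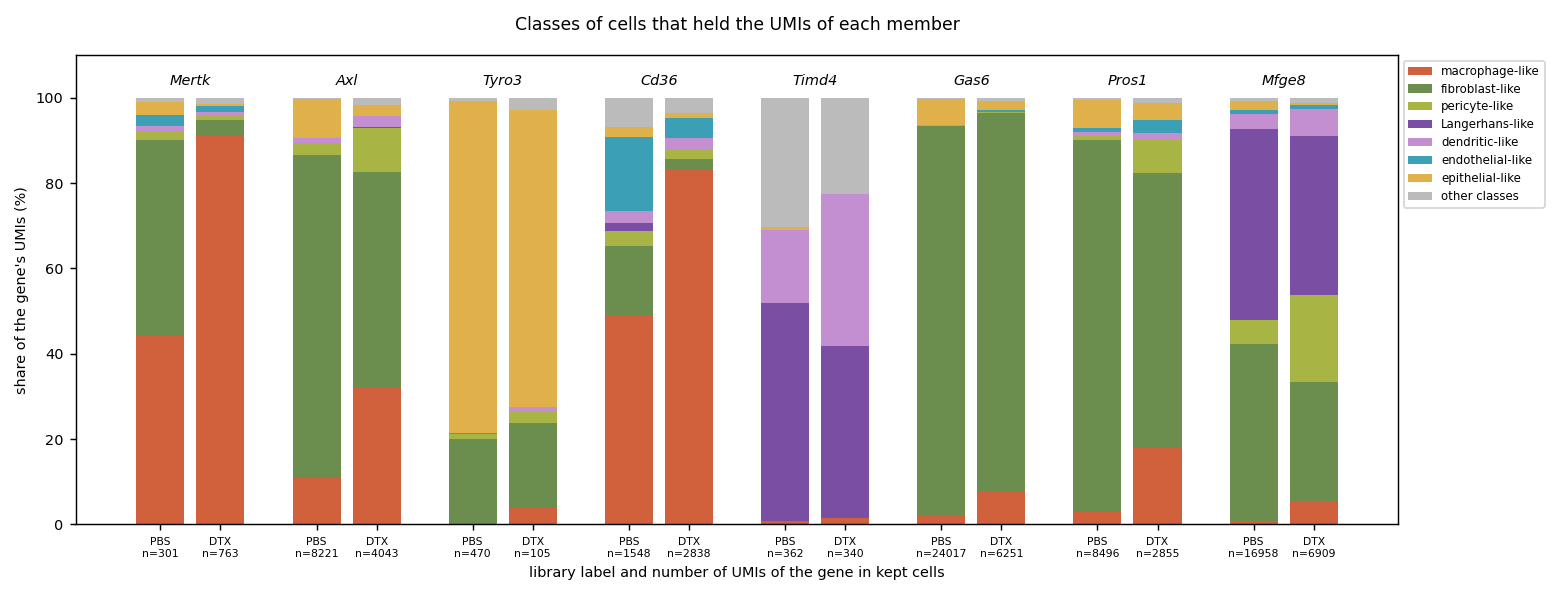
Share of the UMIs of each member (y axis, percent) that lay in each class of cells, 1 bar per gene and library, with the number of UMIs under each bar. Epithelial-like cells held most *Tyro3* UMIs, fibroblast-like cells most *Gas6* and *Pros1* UMIs, and Langerhans-like cells 44.6% and 37.2% of those of *Mfge8* from 1.54% and 0.56% of the cells.

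Among the receptors in macrophage-like cells, the libraries differed most for *Axl*. Most PBS cells of this class lay in subclusters 1 and 3 and most DTX cells in subclusters 0, 2, 4 and 5, which are described after the class totals. *Axl*, which binds *Gas6*, stood at 106 CPM (98.9 to 113) in 1714 cells of the PBS library and at 43.0 CPM (40.7 to 45.4) in 4417 cells of the DTX library. The DTX level was 2.43-fold lower (log2 ratio -1.28, -1.40 to -1.16, with 1 CPM added before the log as in all ratios here), and the intervals did not overlap. After thinning each cell to 2000 UMIs, which leaves out 221 and 132 shallower cells, an *Axl* UMI was found in 15.5% (13.7% to 17.5%) of PBS and 6.49% (5.77% to 7.27%) of DTX cells. Without thinning the shares were 28.6% and 17.4%. For comparison, NK or T-like cells gave 1.37% and 1.32% after thinning, at medians of 6534 and 8059 UMIs against 4723.5 and 6728 in macrophage-like cells.

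*Mertk*, the receptor most tied to clearance by macrophages, was higher in the DTX library, unlike the other members with a ratio here. It was counted 133 times in the PBS and 694 times in the DTX library, which is 15.8 CPM (13.3 to 18.8) and 22.9 CPM (21.2 to 24.7), a log2 ratio of 0.51 (0.25 to 0.77). The thinned shares were 3.08% and 4.13%, with overlapping intervals of 2.26% to 4.09% and 3.55% to 4.77%. No *Mertk* UMI was found in the NK or T-like or Langerhans-like cells of either library.

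*Cd36* stood at 90.2 CPM (83.9 to 96.8) in the PBS and 77.9 CPM (74.8 to 81.1) in the DTX library, a log2 ratio of -0.21 (-0.33 to -0.09). Its thinned shares of 11.2% and 10.4% had overlapping intervals, and the unthinned shares of 18.9% and 22.8% were in the opposite order, so no order is read from them. *Tyro3*, the third TAM receptor, had 1 UMI in the PBS and 4 in the DTX library. With *Timd4* at 2 and 5 UMIs, both genes were at or near the floor of 3 counts in macrophage-like cells, and no ratio is given for them.

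The bridging molecules *Gas6* and *Pros1* were lower in macrophage-like cells of the DTX library. *Gas6*, the ligand of all TAM receptors, stood at 65.2 CPM (59.9 to 70.9) in the PBS and 15.8 CPM (14.4 to 17.2) in the DTX library, which is 3.95-fold lower (log2 ratio -1.98, -2.15 to -1.81). A *Gas6* UMI was found in 10.2% (8.76% to 11.9%) and 2.80% (2.33% to 3.34%) of thinned cells, against 0.46% and 0.66% of NK or T-like cells. *Pros1*, protein S, an anticoagulant and ligand of *Mertk* and *Tyro3*, stood at 28.2 CPM (24.7 to 32.0) and 16.8 CPM (15.3 to 18.3), a log2 ratio of -0.72 (-0.93 to -0.50). Its thinned shares were 5.16% (4.09% to 6.40%) and 3.38% (2.86% to 3.97%), so that the intervals of level and share were both apart.

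*Mfge8* stood at 16.8 CPM (14.1 to 19.8) and 12.7 CPM (11.4 to 14), a log2 ratio of -0.38 (-0.65 to -0.11), but 96 of its 384 UMIs in the DTX library came from 1 cell. Its thinned shares of 2.95% and 1.96% were below the 5.48% and 5.30% of NK or T-like cells. Whether either class makes *Mfge8* RNA or holds that of other cells was not tested, so no macrophage difference is read from these values.

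A minimum of 50 UMIs in the libraries together left 6 members in macrophage-like cells, of which 2 (*Axl* and *Gas6*) were at least 2-fold lower in the DTX library, where 3.43% of 10130 genes were, and 0 were at least 2-fold higher, where 1.65% were. The median log2 ratio was -0.55 over these members and 0.05 over all genes tested. *Axl* and *Gas6* are both in the list the study drew up for *C1qa*+ macrophages from these libraries, and *Axl* also in its *Ifit1*+ list, so their difference is not independent of that list. RNA of other cells differed between the libraries too. In macrophage-like cells, the sum of 10 fibroblast genes was 954 CPM in the PBS and 197 in the DTX library, all 10 with UMIs in both. The sums were 547 and 164 CPM for 10 keratinocyte genes and 99.9 and 132 for 6 neutrophil genes. For 6 platelet genes, of which 4 and 5 had UMIs, the sum was 1006 and 1168 CPM. It was 20.0 and 43.4 CPM in fibroblast-like and 60.8 and 4.94 CPM in NK or T-like cells. *Pf4* was a leading gene of the macrophage-like class itself, and whether the platelet sum is RNA of other cells was not tested. At the ratio seen in fibroblast-like cells, the fibroblast sum would bring 6.19 and 1.58 CPM of *Gas6*, or 9.50% and 10.0% of its level, and 1.67% and 1.35% of that of *Axl*. The log2 ratios with these amounts taken off were -1.98 for *Gas6* and -1.28 for *Axl*.

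**Figure D2:**
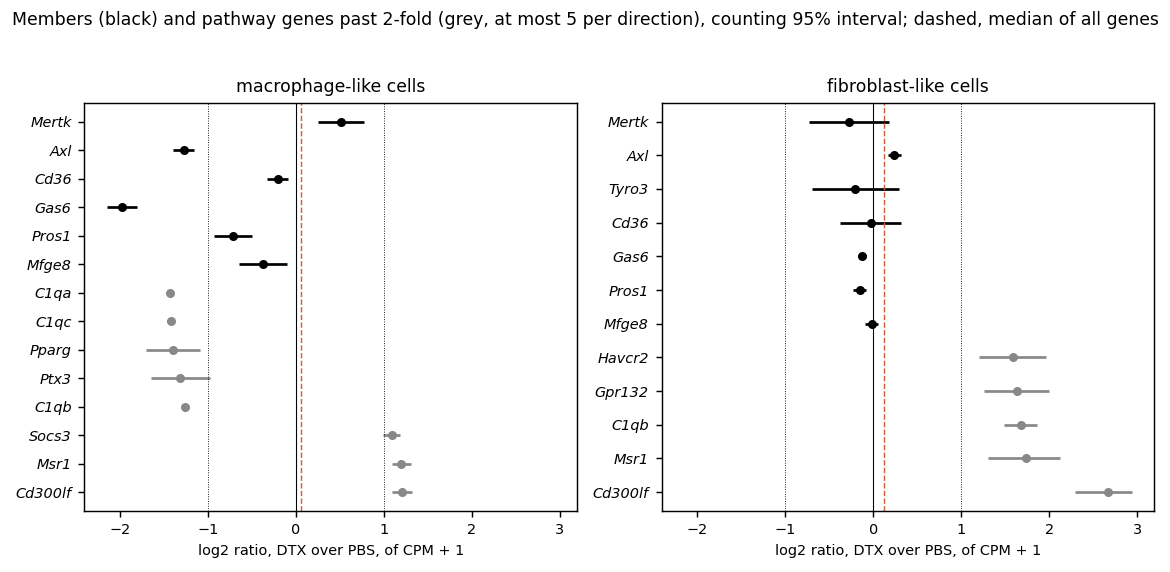
Log2 ratio of the DTX over the PBS library (x axis, of CPM + 1) with its counting interval (bars) for the members (black) and pathway genes past 2-fold (grey, at most 5 per direction) in macrophage-like (left) and fibroblast-like (right) cells. *Axl* and *Gas6* lie left of the 2-fold line at -1.28 and -1.98 in macrophage-like cells, and no member lies past it in fibroblast-like cells.

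The promoters of *Axl* and *Gas6*, the members that were 2-fold lower in macrophage-like cells, are shown from RefSeq (GRCm38.p6). They run 5′ to 3′ on the strand of the gene, from 250 bases before to 50 after its RefSeq start. For both genes this start differs from that of the GENCODE gene, whose coordinates are given next. *Axl* lies on the minus strand of chromosome 7 (gene 25757273 to 25788705, GENCODE, GRCm38), with the stretch shown at chr7:25788684-25788983. *Gas6* lies on the minus strand of chromosome 8 (gene 13465374 to 13494490), with the stretch shown at chr8:13494486-13494785. Capitals mark the GC box, GGGCGG or its reverse complement CCGCCC.
Axl: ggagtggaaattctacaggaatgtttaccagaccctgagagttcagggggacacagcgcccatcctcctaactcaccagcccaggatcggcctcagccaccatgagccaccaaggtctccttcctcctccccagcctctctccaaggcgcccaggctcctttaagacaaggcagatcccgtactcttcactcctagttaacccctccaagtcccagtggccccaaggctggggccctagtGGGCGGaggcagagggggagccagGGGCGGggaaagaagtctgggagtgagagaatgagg
Gas6: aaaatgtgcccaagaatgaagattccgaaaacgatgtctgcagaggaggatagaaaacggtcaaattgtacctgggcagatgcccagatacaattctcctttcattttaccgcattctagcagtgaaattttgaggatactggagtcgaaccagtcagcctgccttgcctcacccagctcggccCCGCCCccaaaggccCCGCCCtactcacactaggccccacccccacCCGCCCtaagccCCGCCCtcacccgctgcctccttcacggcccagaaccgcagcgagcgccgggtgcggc
*Axl* holds 2 matches and *Gas6* 4. The GC box was found in 7 of the 8 members, all but *Timd4*, and in 35.7% of all 32851 promoters of this length.

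The libraries held different macrophage states. Clustering without the members and the other pathway genes gave 7 subclusters, and most PBS cells lay in subclusters 1 (829 cells, MHC class II-like) and 3 (627 cells, *Klf2*-like), while the DTX cells were spread over 0 (1147, *Cd9*-like), 2 (1029, *Vcan*-like), 4 (828, *Ccl7*-like) and 5 (682, MHC class II-like). Subcluster 3 was led by the heat-shock genes *Hspa1a* and *Hspb1* and by *Ccl8*, *Lpl*, *Igf1* and *Gpnmb*, and subcluster 0 by *Arg1* and *Cxcl3*. At a resolution of 1.0, *Ccl8*, *Lpl* and *Igf1* led an unnamed cluster of 439 PBS and 128 DTX cells. Of the *C1qa* marker list, 2 genes were among its leading genes and 3 of 7 were raised, and of the *Klf2* list 3 of 6 were raised. *Hspa1a* and *Hspb1* led a *Klf2*-like cluster of 46 and 165 cells. Below, *Klf2*-like stands for the whole of subcluster 3. Another *Klf2*-like cluster of 190 and 80 cells, at 0.29 of the library median of UMIs, was led by *Dcn* and *Col3a1*. How subcluster 3 divides among these was not counted, so its ratios may compare different mixtures of cells. Subcluster 6 (64 and 106 cells, *Ifit1*-like) was led by interferon-response genes such as *Cxcl10* and *Rsad2*. Ratios between the libraries are given for the 5 subclusters with at least 50 cells in both, of which the *Ccl7*-like one had 68 PBS cells. The share of all genes that differed by 2-fold was counted for whole classes only, not within macrophage or fibroblast subclusters.

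*Axl* was highest in the *Ifit1*-like subcluster in both libraries, at 236 CPM (188 to 293) in the PBS and 163 CPM (137 to 192) in the DTX library, and its level in the *Vcan*-like subcluster of the DTX library was 8.84 CPM (6.85 to 11.2). In subcluster 1 it stood at 118 and 68.4 CPM (log2 ratio -0.78, -1.06 to -0.52) and in the *Ccl7*-like subcluster at 68.6 and 27.1 CPM (-1.31, -2.01 to -0.53). In the *Klf2*-like subcluster the levels of 77.0 and 85.1 CPM had overlapping intervals (0.14, -0.18 to 0.46). The ratio was -0.29 (-0.74 to 0.18) in subcluster 5 and -0.54 (-0.94 to -0.13) in the *Ifit1*-like cells. *Axl* was thus lower in the DTX library in 4 of 5 subclusters, and in 1 of these 4 the interval included 0.

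*Gas6* was highest in the *Klf2*-like and *Ccl7*-like cells, at 139.5 CPM (125 to 155) and 126 CPM (86.6 to 177) in the PBS library, and these intervals overlapped. In the DTX library the intervals were apart, with 85.1 CPM (71.7 to 100.3) in the *Klf2*-like and 35.3 CPM (30.4 to 40.8) in the *Ccl7*-like cells. The log2 ratio was -0.71 (-1.0 to -0.42) in the former and -1.80 (-2.34 to -1.23) in the latter. Subcluster 1 gave 33.7 and 17.7 CPM (-0.89, -1.42 to -0.39). *Gas6* was lower in the DTX library in 5 of 5 subclusters, but in subclusters 5 (4 and 23 UMIs) and 6 (13 and 14 UMIs) the intervals of the ratio included 0.

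With equal weight for each of the 5 subclusters, an alternative added after the data had been seen, the log2 ratio was -0.50 for *Axl*, -1.09 for *Gas6*, 0.85 for *Mertk* and -0.75 for *Cd36*, beside a median of 0.09 over all genes. *Axl* then no longer stood 2-fold lower, and 1 member was lower and 1 higher by 2-fold. The higher one was *Mfge8* at 1.10, which rested on 1 cell of the *Ifit1*-like subcluster that held 96 of the 116 *Mfge8* UMIs there. The share of all genes past 2-fold was not counted with this weighting, so no result about the members is read from these counts.

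*Mertk* was found at 38.6 CPM (34.2 to 43.4) in the *Cd9*-like cells of the DTX library and at 11.5 CPM (9.19 to 14.2) in its *Vcan*-like cells. In the *Klf2*-like subcluster it stood at 30.2 CPM (23.7 to 38.0) in the PBS and 41.9 CPM (32.7 to 53.0) in the DTX library, with overlapping intervals. In subcluster 5 it was counted 2 and 116 times, 3.79 and 20.2 CPM, a log2 ratio of 2.14 (0.50 to 3.88). In subcluster 1, which held more PBS cells than any other subcluster, the levels were 10.4 and 11 CPM.

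*Cd36* was highest in the *Cd9*-like cells of the DTX library among its subclusters, at 119.8 CPM (112 to 128). It was 2-fold or more lower in the DTX library in both *Gas6*-rich subclusters, with 172 and 62.9 CPM in the *Klf2*-like cells (log2 ratio -1.44, -1.75 to -1.13) and 149 and 69.0 CPM in the *Ccl7*-like cells (-1.10, -1.57 to -0.58). In subclusters 1 and 5 the ratios of -0.33 (-0.72 to 0.04) and -0.33 (-0.82 to 0.19) had intervals that included 0. In the *Ifit1*-like cells *Cd36* was higher in the DTX library, at 17.1 and 43.6 CPM (1.30, 0.09 to 2.71), from 6 and 37 UMIs.

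*Pros1* was lower in the DTX library in the *Klf2*-like cells, at 34.8 and 15.0 CPM (-1.16, -1.82 to -0.54), and reached 21.4 CPM (18.2 to 24.9) in the *Vcan*-like cells of that library. *Mfge8* stood at 25.3 and 10.2 CPM there (-1.23, -2.01 to -0.49), but its thinned shares of 5.28% and 0.84% were also below those of NK or T-like cells, so no macrophage difference is read from it.

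**Figure D3:**
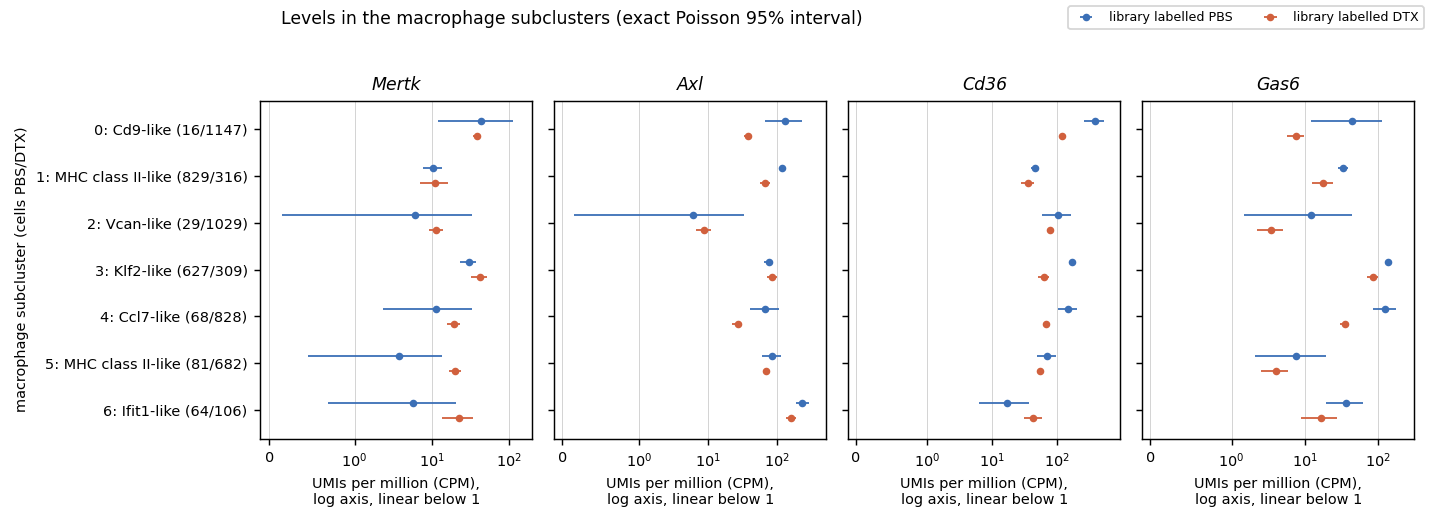
Levels of *Mertk*, *Axl*, *Cd36* and *Gas6* (x axis, CPM, log axis that is linear below 1) in the 7 macrophage subclusters (y axis, with cell numbers in the PBS and DTX library), with exact Poisson intervals. *Axl* was highest in the *Ifit1*-like cells (236 and 163 CPM), *Gas6* in the *Klf2*-like cells (139.5 and 85.1 CPM), and the subclusters with 16 and 29 PBS cells have wide intervals.

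Within a library, *Gas6* went with *Mrc1* in macrophage-like cells. Among thinned PBS cells with an *Mrc1* UMI, 14.2% of 793 (11.9% to 16.9%) had a *Gas6* UMI, against 5.71% of 700 (4.11% to 7.70%) without. In the DTX library the shares were 4.71% of 1847 (3.79% to 5.78%) and 1.35% of 2438 (0.93% to 1.90%). For *Axl* the order was the reverse, with 12.9% and 18.6% in the PBS and 5.09% and 7.55% in the DTX library. *Mertk* was found in 3.40% and 2.71% of PBS cells and in 4.22% and 4.06% of DTX cells with and without an *Mrc1* UMI, with overlapping intervals.

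Few macrophage-like cells showed a receptor together with its ligand at this depth. *Axl* and *Gas6* UMIs were found together in 16 of 1493 thinned PBS cells, 1.07%, where the product of the single shares was 1.59%, and in 6 of 4285 DTX cells, 0.14% against 0.18%. The intervals, 0.61% to 1.73% and 0.05% to 0.30%, included these products. *Mertk* and *Gas6* were found together in 0.60% (0.28% to 1.14%) against 0.32% in the PBS and 0.12% against 0.12% in the DTX library, from 9 and 5 cells. *Mertk* and *Pros1* gave 0.20% against 0.16% and 0.09% against 0.14%, from 3 and 4 cells. *Mertk* and *Axl* were found together in 1.14% against a product of 0.48% in the PBS and in 0.33% against 0.27% in the DTX library, from 17 and 14 cells. *Gas6* and *Pros1*, both bridges, shared 17 PBS cells, 1.14% against 0.53%, but only 2 DTX cells, 0.05% against 0.09%. In the DTX library the interval, 0.01% to 0.17%, included the product. The other pairs of members are not given here.

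In fibroblast-like cells, which held most of the *Gas6* and *Pros1* UMIs, no member with at least 50 UMIs differed by 2-fold. *Gas6* stood at 624 CPM (616 to 632) in 3066 cells of the PBS and 571 CPM (556 to 586) in 656 cells of the DTX library, a log2 ratio of -0.13 (-0.17 to -0.09). Its thinned share was 55.6% (53.8% to 57.4%) and 43.2% (39.4% to 47.1%). *Pros1* stood at 212 CPM (207 to 217) and 190.0 CPM (181 to 199), a ratio of -0.15 (-0.23 to -0.08), and *Mfge8* at 201 CPM (196 to 206) and 198 CPM (189 to 207), a ratio of -0.02 (-0.09 to 0.05).

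*Axl*, the receptor with the largest fibroblast-like share of its UMIs, was slightly higher in the DTX library, at 178 CPM (173 to 182) and 210.0 CPM (201 to 219), a ratio of 0.24 (0.17 to 0.31). *Mertk* at 3.94 and 3.09 CPM, *Tyro3* at 2.65 and 2.16 CPM and *Cd36* at 7.25 and 7.10 CPM had overlapping intervals, and *Timd4* had 1 and 0 UMIs. Of the 7 members with at least 50 UMIs, 0 were higher and 0 lower by 2-fold, where 2.64% and 1.4% of 11814 genes were. The median of all genes was 0.12, and with scaling by the median ratio the values were 0.11 for *Axl*, -0.26 for *Gas6*, -0.29 for *Pros1* and -0.15 for *Mfge8*.

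The small *Gas6* difference over all fibroblast-like cells covered ratios of opposite sign in the fibroblast subclusters. In subcluster 0 (845 and 296 cells, *Plac8*-like, led by *Sfrp2* and *Mfap5*), *Gas6* stood at 211 CPM (203 to 219) in the PBS and 589 CPM (568 to 610.0) in the DTX library, a log2 ratio of 1.48 (1.40 to 1.55). In subcluster 2 (661 and 50 cells, led by *Ctla2a* and *Gpx3*), it stood at 1026 and 1583 CPM, a ratio of 0.63 (0.53 to 0.72). It was lower in the DTX library in subcluster 1 (1016 and 96 cells, led by *Igfbp2* and *Grem1*), with 829 and 452 CPM and a ratio of -0.87 (-1.0 to -0.75). It was also lower in subcluster 3 (473 and 146 cells, led by *Coch* and *Fmod*), with 697 and 406 CPM and a ratio of -0.78 (-0.91 to -0.65).

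A part of the *Gas6* RNA lay in few cells. The 10 cells with most *Gas6* held 13.5% of its UMIs in subcluster 0 of the PBS and 26.7% in that of the DTX library, and 43.1% in subcluster 1 of the DTX library. Of the subcluster 0 cells, 433 of 845 and 193 of 296 had a *Gas6* UMI. Across the same 4 subclusters, the ratios of the other bridges were close to 0, from -0.17 to 0.24 for *Pros1* and from -0.06 to 0.37 for *Mfge8*, and those of *Axl* ran from -0.08 to 0.51.

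**Figure D4:**
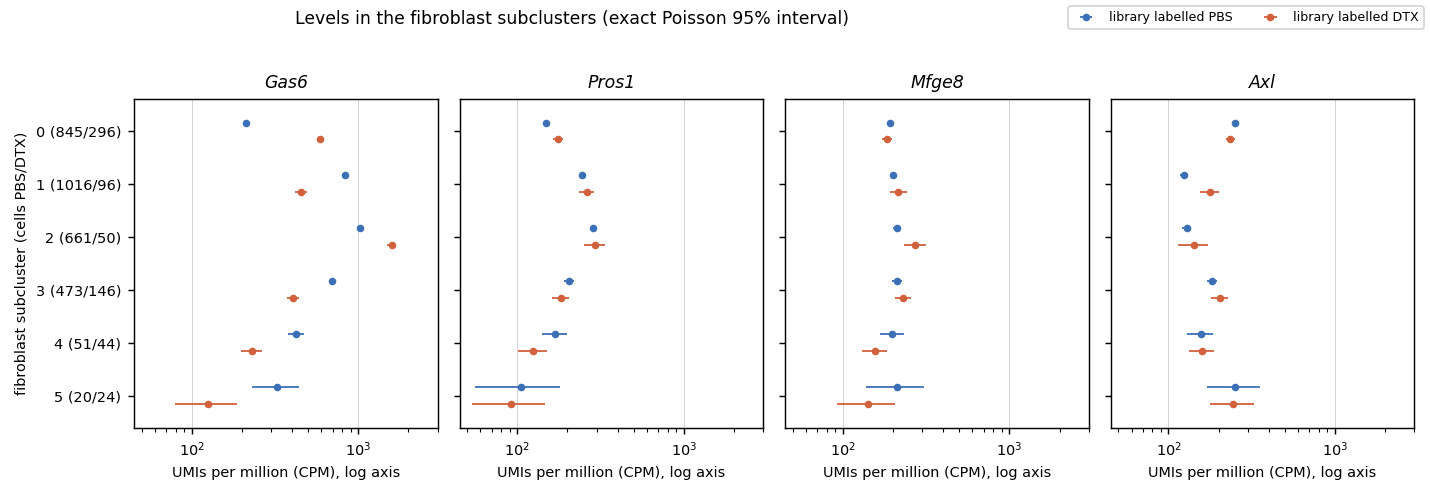
Levels of *Gas6*, *Pros1*, *Mfge8* and *Axl* (x axis, CPM, log axis) in the 6 fibroblast subclusters (y axis, with cell numbers in the PBS and DTX library), with exact Poisson intervals. *Gas6* was higher in the DTX library in subclusters 0 (211 and 589 CPM) and 2 (1026 and 1583 CPM) and lower in subclusters 1 and 3, while *Pros1* and *Mfge8* lay close together.

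Langerhans cells are the macrophage-related cells of the epidermis, and their *Mfge8* level exceeded that of every other class. It stood at 6005 CPM (5870 to 6141) in 122 PBS cells and 6144 CPM (5909 to 6387) in 37 DTX cells, and every cell of both had an *Mfge8* UMI. Pericyte-like cells were next, with 1079 CPM (1012 to 1149) and 842 CPM (798 to 887), a ratio of -0.36 (-0.48 to -0.24). Dendritic-like cells had 223 CPM (206 to 241) in the PBS and 113 CPM (103 to 125) in the DTX library, a ratio of -0.97 (-1.15 to -0.79). In dendritic-like cells 10 cells held 58.9% and 44.4% of the *Mfge8* UMIs. The names rest on fixed markers, and *Cd207*, the defining Langerhans gene, stood at 11582 and 9756 CPM in the Langerhans-like cells.

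Langerhans-like cells were also highest in *Timd4*, with 147 CPM (126 to 170) in the PBS and 328 CPM (275 to 388) in the DTX library, but 10 of the 37 DTX cells held 81.8% of its 137 UMIs. With 37 cells, no ratio is given. The thinned shares of 20.8% (14% to 29.2%) and 30.6% (16.4% to 48.1%) overlapped. *Mertk* and *Tyro3* had 0 UMIs in 122 and 37 Langerhans-like cells, for which the exact upper limits are 2.93 and 8.83 CPM.

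*Timd4* was next found in cluster 8, an unnamed class of 104 and 106 cells that held *Clec9a* and *Xcr1*, genes of cross-presenting dendritic cells. Its leading genes included *Cst3*, *Acp5*, *H2afz*, *Naaa*, *H2-Ab1* and *Stmn1*. The marker list most raised in it was that of macrophages, 5 of 10 genes, with 0 of them among its 10 leading genes. With doublets kept, a cluster of 106 and 111 cells with similar leading genes had the dendritic list most raised, 6 of 12 genes. With up to 10% mitochondrial UMIs, the unnamed cluster had 55 and 93 cells and was led by *Acp5*, *Mmp9*, *Dct* and *Pmel*. Its most raised list was that of macrophages, 7 of 10 genes. How many cells of cluster 8 lay in either was not counted. In cluster 8, *Timd4* stood at 84.7 CPM (69.5 to 102) and 43.7 CPM (33.8 to 55.6), a ratio of -0.94 (-1.39 to -0.49). In dendritic-like cells it stood at 22.1 CPM (16.9 to 28.3) and 31.5 CPM (26.2 to 37.7), a ratio of 0.49 (0.06 to 0.94), with thinned shares of 4.49% and 4.83%. In the PBS library these 3 levels did not overlap. Fibroblast-like, pericyte-like and endothelial-like cells together had 1 *Timd4* UMI in the PBS and 0 in the DTX library.

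*Tyro3* was found above all in epithelial-like cells, at 12.9 CPM (11.6 to 14.2) and 18.8 CPM (14.7 to 23.6), a ratio of 0.52 (0.15 to 0.86). Its thinned shares of 2.41% and 4.37% had overlapping intervals. Pericyte-like cells were next in the PBS library at 5.59 CPM (1.82 to 13.1), from 5 UMIs, and this interval overlapped that of epithelial-like cells.

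*Cd36*, which also takes up fatty acids in capillaries, was highest in endothelial-like cells, at 257 CPM (227 to 289) in the PBS and 175 CPM (147 to 208) in the DTX library, a ratio of -0.55 (-0.85 to -0.24). It was lower in the DTX library in pericyte-like cells too, at 57.0 and 36.3 CPM (-0.64, -1.19 to -0.08), and in cluster 8, at 70.7 and 47.7 CPM (-0.56, -1.02 to -0.10). In epithelial-like cells the levels of 1.30 and 8.50 CPM gave a ratio of 2.05 (1.5 to 2.55), from 37 UMIs in 19 PBS cells and 33 UMIs in 10 DTX cells.

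Pericyte-like cells had *Axl* levels of 242 CPM (210 to 276) and 248 CPM (225 to 273), a ratio of 0.04 (-0.20 to 0.28), above the fibroblast-like level in both libraries. Dendritic-like cells were lower in *Axl* in the DTX library, at 41.7 and 27.9 CPM (-0.56, -0.94 to -0.18). Endothelial-like cells had 5 and 0 *Axl* UMIs.

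Outside fibroblast-like and macrophage-like cells, *Gas6* was at most 52.7 CPM in any class with at least 50 cells in both libraries. Epithelial-like cells had 51.3 CPM (48.7 to 54.0) and 35.3 CPM (29.6 to 41.7), a ratio of -0.53 (-0.78 to -0.28). In pericyte-like cells it was counted 41 and 12 times, 45.8 and 7.14 CPM (-2.52, -3.44 to -1.64), and 10 PBS cells held 78.0% of the PBS UMIs. The 10 fibroblast genes all had UMIs in pericyte-like cells, and at the fibroblast ratio their sum would bring 171 and 162 CPM of *Gas6*, above the measured level in both libraries. The part of fibroblast RNA in this difference was not tested. At the fibroblast ratio, fibroblast RNA would give 53.3% and 56.4% of the *Gas6* level of dendritic-like cells, 8.56 and 1.82 CPM, and its part in that level was not tested.

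*Pros1* was higher in the DTX library in pericyte-like cells, at 89.5 and 129.7 CPM (0.53, 0.16 to 0.92), and in endothelial-like cells, at 80.1 and 118 CPM (0.56, 0.12 to 1.00), where 1 cell held 20 of the 91 DTX UMIs. In dendritic-like cells it was lower, at 24.2 and 10.9 CPM (-1.08, -1.63 to -0.54). The 10 fibroblast genes summed to 26299 and 20100 CPM in pericyte-like cells. The part of fibroblast RNA in the *Pros1* levels of these classes was not tested.

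**Figure D5:**
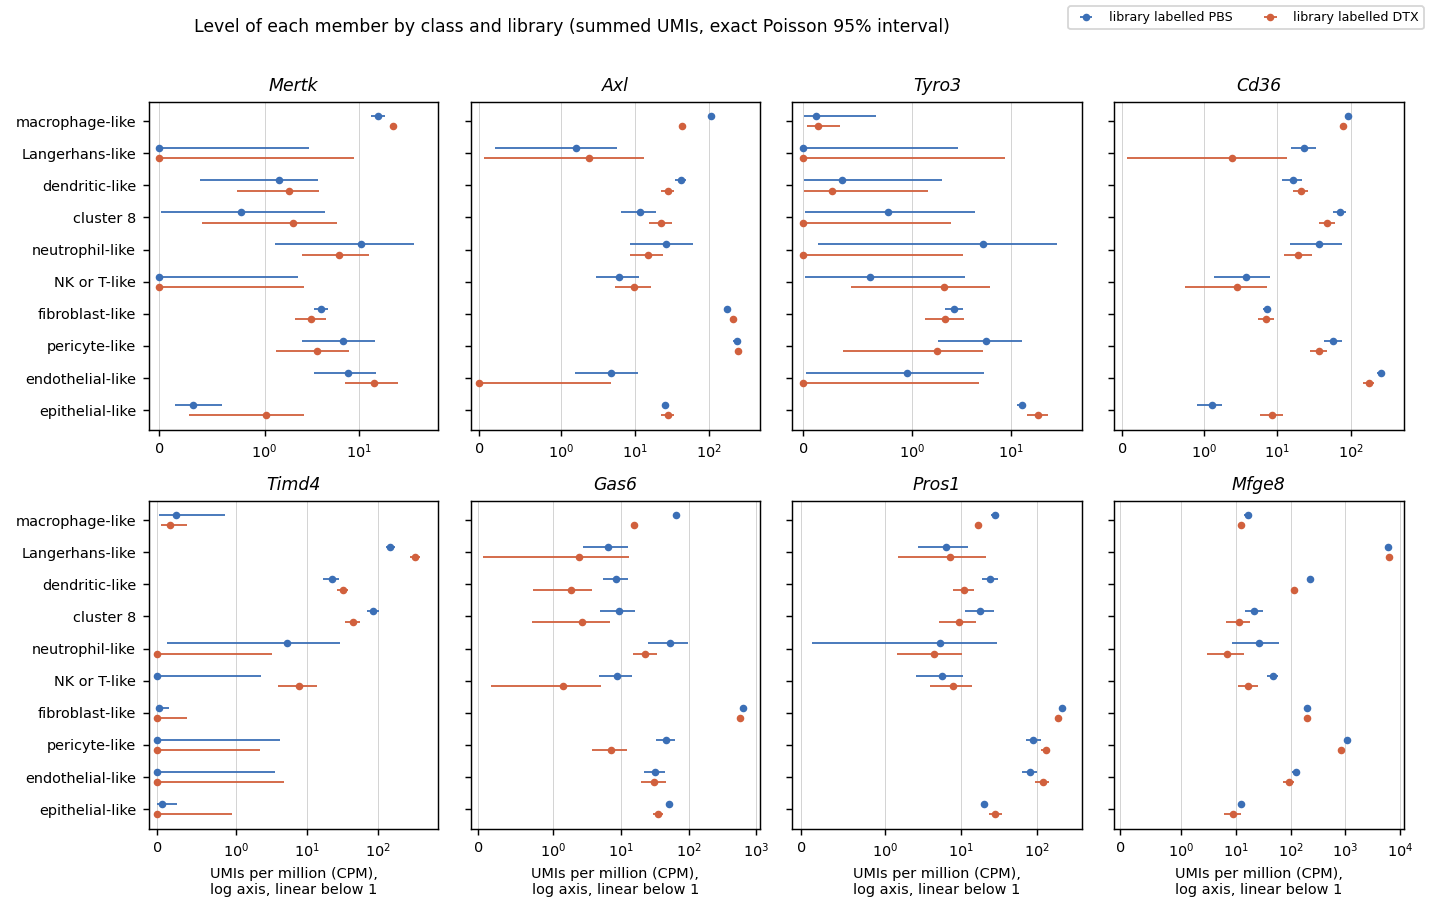
Level of each member (x axis, CPM, log axis that is linear below 1) in 10 classes of cells (y axis) in the PBS and DTX library, with exact Poisson intervals. Langerhans-like cells stand out for *Mfge8* (6005 and 6144 CPM) and *Timd4* (147 and 328 CPM), fibroblast-like cells for *Gas6* and *Pros1*, endothelial-like cells for *Cd36* and epithelial-like cells for *Tyro3*.

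The rest of the pathway was read from 65 other genes in 8 lists. In macrophage-like cells, 56 had at least 50 UMIs, of which 3 were 2-fold higher and 5 lower in the DTX library, against 1.65% and 3.43% of all genes, and their median log2 ratio was 0.06. The lower genes were mostly other bridging molecules, 4 of 9 tested. *C1qa*, *C1qb* and *C1qc*, whose complex C1q coats dying cells, stood at 2073 and 768 CPM (-1.43), 2816 and 1175 CPM (-1.26), and 1000.1 and 372 CPM (-1.42). *Ptx3*, a soluble pattern recognition molecule, stood at 12 and 4.22 CPM (-1.32). In fibroblast-like cells *Ptx3* stood at 1268 and 1884 CPM, and the part of fibroblast RNA in its macrophage-like level was not tested. The C1q genes, *Ptx3* and *Pparg*, the lower gene given below, are all in the study's *C1qa*+ list, drawn from these libraries. Their differences are thus not independent of that list. Among the same 9 bridging molecules, *Thbs1*, which links dying cells to *Cd36*, stood at 2957 and 5524 CPM (0.90).

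Of 11 other receptors tested, 2 were higher and 0 lower. *Cd300lf*, a phosphatidylserine receptor, stood at 77.0 and 179 CPM (1.20), and *Msr1*, a scavenger receptor, at 87.2 and 201 CPM (1.20). *Cd300lf* is in the study's *Ccl7*+ list, drawn from these libraries. The integrin chains that bind *Mfge8* stood at 114 and 132 CPM for *Itgav* (0.22) and 53.8 and 52.4 CPM for *Itgb5* (-0.04). *Itgb3*, another of these chains, stood at 4.28 and 5.97 CPM (0.40, -0.04 to 0.84). Among 12 genes of digestion and lipid response, 1 was lower, *Pparg*, a nuclear receptor for lipids, at 15.2 and 5.14 CPM (-1.40). The cholesterol exporter *Abca1* stood at 533 and 441 CPM (-0.27).

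Of 4 genes of receptor shedding and feedback, 1 was higher, the cytokine signalling inhibitor *Socs3*, at 120.1 and 256 CPM (1.09), and *Adam17*, the protease that sheds *Mertk*, stood at 116 and 112 CPM (-0.05). The 7 genes of uptake machinery tested, among them *Rac1* at 427 and 505 CPM (0.24), had 0 higher and 0 lower. The same held for 3 genes of phosphatidylserine exposure and eat-me signals, 5 that restrain uptake, among them *Cd47* at 360.4 and 438 CPM (0.28), and 5 find-me signals and their receptors.

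In fibroblast-like cells, 9 of 58 tested pathway genes stood 2-fold higher and 0 lower, where 2.64% and 1.4% of all genes were, beside a median of 0.05. The 5 with the largest ratios were *Cd300lf*, *Msr1*, *C1qb*, *Gpr132* and *Havcr2*, genes known from immune cells. Subcluster 4 (51 and 44 cells), led by the immune genes *Cd74* and *Lyz2*, held 73.3% to 87.9% of the DTX UMIs of the 9 genes. Without it, 0 of the 54 genes that still had 50 UMIs were higher, and *Cd300lf*, at 0.20 and 1.46 CPM (log2 ratio 1.03), was no longer among those tested. The share of all genes past 2-fold was not counted without subcluster 4.

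Over 19 profiles of a class in a library, the levels of *Mertk* and *Cd36* had a Pearson r of 0.70 and those of *Gas6* and *Pros1* one of 0.62, as log2(CPM + 1). The profiles share 2 libraries and differ in depth, so these are descriptions. Among 12090 genes, the 3 most like each member were as follows. *Mertk* was closest to *Man1c1* (0.87), *Lgals9* (0.86) and *Mcfd2* (0.86), and *Axl* to *Itgb5* (0.90), *Dse* (0.89) and *Dtnbp1* (0.84). For *Tyro3* these were *Gpr161* (0.94), *Ephb3* (0.93) and *Lrrc8e* (0.93), and for *Cd36* *Hip1* (0.93), *Parvb* (0.90) and *Rasa4* (0.89). *Timd4* was closest to *Strip2* (0.91), *Tbc1d4* (0.90) and *Sept3* (0.90), *Gas6* to *Rnase4* (0.91), *Ang* (0.91) and *Efemp1* (0.90), *Pros1* to *Gm4951* (0.93), *Lzts2* (0.93) and *Pcdhb22* (0.93), and *Mfge8* to *Fads3* (0.82), *H1fx* (0.82) and *Decr1* (0.81). *Rnase4* and *Ang* are overlapping genes that share a promoter, and their reads may be split by the counting.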

How the data were processed

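The authors deposited raw UMI counts per gene and cell of 2 libraries, made with Cell Ranger 6.1.1 (file header and the submitters' processing notes) against mm10 and not normalized. Members and gene lists were chosen with earlier results of these data known. Doublets were removed with Scrublet (scanpy 1.11.5, expected 8%) per library. In the PBS library its threshold removed 382 of 8326 cells (4.59%). In the DTX library it called 0, and the top 8.00% of scores, 575 of 7188, were removed. Cells were clustered with Seurat 5.3.0 (R 4.3.3) on 2000 variable genes without the 8 members and 65 pathway genes, with 30 principal components, at resolutions of 0.2, 0.5 (macrophage-like) and 0.2 (fibroblast-like), and named from fixed markers. A name may differ from that of the study. UMIs were summed per class and library and given as CPM, with 1 CPM added before log2 ratios, in Python 3.11.15 (numpy 2.4.6, scipy 1.17.1, pandas 2.3.3). Intervals of ratios are exact conditional binomial. Named are the 8 members, pathway genes with at least 50 UMIs past 2-fold (at most 5 per direction and class, by size), the 3 genes most like each member, *Mrc1* and markers. The other pathway genes named were chosen after their values were seen. Lists of fibroblast, keratinocyte, neutrophil and platelet genes served as checks. The libraries held 12058 (PBS) and 11031 (DTX) barcodes with 105511870 and 81858751 UMIs. Calculations were tested on simulated data.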

Additional observations from a re-analysis of the deposited data

Results flagged for a closer look

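Each of these pairs had log2 ratios (DTX over PBS) of opposite sign with counting intervals that both excluded 0, and the difference between the ratios was not tested. *Cd36* had a ratio of 2.05 in epithelial-like and -0.64 in pericyte-like cells, with all 33 DTX UMIs of the former in 10 cells. *Pros1* had 0.56 in endothelial-like and -1.08 in dendritic-like cells. *Mfge8* had 3.47 in the *Ifit1*-like macrophage subcluster and -1.23 in the *Klf2*-like one, and 1 cell held 96 of the 116 DTX UMIs of the former. The thinned shares of cells with an *Mfge8* UMI in the latter, 5.28% and 0.84%, were below the 5.48% and 5.30% of NK or T-like cells. *Gas6* had 1.48 in fibroblast subcluster 0 and -0.87 in subcluster 1, where 10 cells held 26.7% and 43.1% of the DTX UMIs.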

How the results depend on the processing

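No paired analysis was possible because each group has 1 library, and for the same reason no replicate could be left out. Over the alternatives run, the log2 ratio in macrophage-like cells ranged from -1.34 to -0.50 for *Axl*, from -2.24 to -1.09 for *Gas6*, from 0.35 to 0.85 for *Mertk*, from -0.87 to -0.51 for *Pros1* and from -0.70 to 1.10 for *Mfge8*. In fibroblast-like cells it ranged from -0.36 to 0.13 for *Gas6* and from 0.11 to 0.27 for *Axl*. With equal weight for each macrophage subcluster, chosen after seeing the data, 1 member was 2-fold lower and 1 higher, against 2 and 0. The pathway genes 2-fold lower in macrophage-like cells were 3 with 10 CPM added before the log, against 5. Those 2-fold higher in fibroblast-like cells were 3 with a minimum of 200 UMIs, 1 with 10 CPM added and 0 without subcluster 4 (chosen after seeing the data), against 9. The log2 ratio of the shares of cells with an *Axl* UMI was -0.72 without thinning. The share of all genes past 2-fold was not counted under these alternatives, and why the values moved was not tested. Of the values that count members or pathway genes or give a share in a comparison, 57 moved little and 7 more. The 57 include counts of 0 that stayed 0, such as those of members past 2-fold in fibroblast-like cells, so this tally says little about stability. Of single members' values, 120 moved little and 22 more, and no value at or past 2-fold changed sign. With at most 5 UMIs a library, *Tyro3* and *Timd4* were too few in macrophage-like cells for a ratio.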
